A study of Mus musculus with 6 samples.

Results

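The neutrophil granule genes described here are 10 genes whose products neutrophils carry or display: S100a8, S100a9, Ltf, Camp, Ngp, Lcn2, Mmp8, Mmp9, Retnlg and Cxcr2. They were chosen by name, with earlier results of these data known. They are the rows of the expression table whose gene name is one of these 10, and all 10 were found among its 38293 genes. RNA was sequenced from 6 tumors of Eμ-Myc mice (strain C57BL6), in which an immunoglobulin enhancer drives the Myc oncogene in B cells, so all groups carry the Myc transgene. Tumors had been made into single cell suspensions and frozen in Trizol, with no sorting stated. The 4 tumors with both copies of miR-146a (miR-146a+/+, called sufficient) came from male mice. Sufficient replicates 1 and 2 were neck node tumors taken at 18 and 16 weeks of age, and sufficient replicates 3 and 4 were thymic tumors taken at 10 and 10 weeks. The 2 tumors without miR-146a (miR-146a-/-, called deficient) were thymic, from mice labelled female, taken at 11 and 10 weeks. Tumor site and age cannot be told apart among the sufficient tumors, and genotype and labelled sex cannot be told apart over all 6. Values are taken as RPKM (read counts scaled by gene length and library depth), although the table's header names no unit. Deficient replicate 2 measured 24.6 RPKM for Ddx3y, a gene of the Y chromosome, above the 17.9 to 23.0 RPKM of the sufficient male tumors, which goes against its label, while deficient replicate 1 held 0.130 RPKM. The values summed to between 675516 and 788919 in 5 tumors and to 1932926 in deficient replicate 1, where the sum without the gene Xist was 692853.

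Neutrophils are short-lived phagocytes that store antimicrobial proteins in granules. Granules are filled in steps as the cells mature in the bone marrow: the azurophil granules come first, with myeloperoxidase and elastase, then the specific granules, with lactoferrin and cathelicidin, and last the gelatinase granules. Mature cells carry the chemokine receptor Cxcr2 and hold large stores of the S100a8 and S100a9 proteins in the cytosol. Monocytes also make S100a8 and S100a9, macrophages make Mmp9 and Lcn2, and epithelia make Lcn2, so not every gene of the set is specific to neutrophils. In bulk RNA from a tumor, fewer cells of a type and less RNA per cell cannot be told apart.

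The deleted microRNA is printed because it defines the genotype, together with its family member miR-146b, which is encoded by another gene. Both mature sequences are from RefSeq (GRCm38.p6) and are written 5′ to 3′, with the seed, bases 2 to 8, in capitals. The first lies at chr11:43374435-43374456 on the minus strand and the second at chr19:46342790-46342811 on the plus strand, and the seeds are the same.
mmu-miR-146a-5p: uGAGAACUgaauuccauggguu
mmu-miR-146b-5p: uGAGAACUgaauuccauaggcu
The gene of the first, Mir146, is listed at 0 RPKM in all 6 tumors, so the expression values hold no check of the genotype.

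The 10 genes lie on 5 chromosomes of GRCm38 (GENCODE M21), and 4 of them on chromosome 9. Mmp8 is at chr9:7558456-7568485, and Camp (chr9:109847379-109849617), Ngp (chr9:110419747-110423012) and Ltf (chr9:111019271-111042767) lie within 1.20 Mb of each other. S100a8 (chr3:90668978-90670035) and S100a9 (chr3:90692632-90695721) are neighbours with a gap of 22.6 kb. The others are Lcn2 (chr2:32384633-32388252), Mmp9 (chr2:164940780-164955850), Retnlg (chr16:48872621-48874496) and Cxcr2 (chr1:74153989-74161246).

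All 10 genes were highest in the 2 neck node tumors, while the order of the thymic groups differed between genes. Their promoters were searched for motifs of 2 families of regulators of granule genes, the C/EBP factors and PU.1. RefSeq windows of 300 bases, from 250 before to 50 after the start site, were given for 9 of the 10 genes, and Mmp9 was the gene without an entry. The letters TTNNGNAA (C/EBP), on either strand, were in 7 of the 9 windows and in 40.7% of all 32851 windows. The letters GAGGAA (PU.1), on either strand, were in 5 of the 9 windows and in 28.3% of all windows. No match to one motif overlapped a match to the other. A match is a description of the letters and not a site. The windows of S100a9, Ngp, Ltf, Mmp8, S100a8 and Lcn2 are shown by 1 stretch of 30 bases each. These examples are on the strand of the gene, with the C/EBP match in capitals. The Retnlg window also held 1 match and is not shown. For S100a9, Ngp, Mmp8 and Lcn2 the printed match is on the opposite strand, so its capitals read as the reverse complement of the motif. Positions are of the first base of the match, the base before the RefSeq start site being -1.
S100a8, position -117 (chr3:90668943-90668972, plus strand): catggacttggTTAGGAAAcagaggctgtg
S100a9, position -130 (chr3:90695833-90695862, minus strand): agggctgggaaTTTCACAAaacatcagagc
Ngp, position -138 (chr9:110419659-110419688, plus strand): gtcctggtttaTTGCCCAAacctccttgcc
Ltf, position -75 (chr9:111019206-111019235, plus strand): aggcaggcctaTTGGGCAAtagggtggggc
Mmp8, position -19 (chr9:7558399-7558428, plus strand): ttaggcagaagTTGCTCAAgatgtagcttt
Lcn2, position -216 (chr2:32387937-32387966, minus strand): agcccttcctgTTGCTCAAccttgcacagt
Ngp held 3 C/EBP matches, and S100a9, Ltf and Mmp8 held 2 each. The windows of Camp and Cxcr2 held none, and that of Cxcr2 held 2 matches to GAGGAA.

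For all 10 genes the 2 neck node tumors were highest, and the 4 thymic tumors of either genotype lay below them. S100a8 and S100a9, which form the heterodimer calprotectin, were the most abundant genes of the set in every tumor. S100a8 stood at 693 and 656 RPKM in the neck node tumors, 103 and 103 RPKM in the sufficient thymic tumors, and 46.4 and 117 RPKM in the deficient tumors. S100a9 measured 642 and 690 RPKM in the neck node tumors, 108 and 74.3 RPKM in the sufficient thymic tumors, and 45.5 and 108 RPKM in the deficient tumors. For both genes the neck node tumors stood apart from all others, and the deficient tumors spanned the values of the sufficient thymic tumors.

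The genes of the specific granule proteins had neck node means of 9.40 (Camp) to 14.0 (Ngp) times those of the sufficient thymic tumors, against 6.54 and 7.31 times for S100a8 and S100a9. Ltf encodes lactoferrin, which binds iron. It measured 40.7 and 39.2 RPKM in the neck node tumors, 1.82 and 4.07 RPKM in the sufficient thymic tumors, and 1.95 and 3.47 RPKM in the deficient tumors. Camp, the cathelicidin antimicrobial peptide, measured 85.6 and 82.0 RPKM in the neck node tumors, 10.9 and 6.94 RPKM in the sufficient thymic and 5.15 and 13.5 RPKM in the deficient tumors. Ngp encodes neutrophilic granule protein, a relative of the cystatins. It measured 109 and 135 RPKM in the neck node tumors, 7.39 and 10.0 RPKM in the sufficient thymic and 6.50 and 24.6 RPKM in the deficient tumors. Lcn2, which binds bacterial iron carriers, measured 17.4 and 23.2 RPKM in the neck node tumors, 1.29 and 2.09 RPKM in the sufficient thymic and 1.37 and 7.26 RPKM in the deficient tumors. The thymic groups overlapped for all 4 genes, and deficient replicate 2 was the highest thymic tumor for 3 of them, Ltf being the exception.

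The proteases were low outside the neck node. Mmp8 is neutrophil collagenase and measured 6.81 and 8.41 RPKM in the neck node tumors, 0.353 and 0.601 RPKM in the sufficient thymic and 0.406 and 1.52 RPKM in the deficient tumors. Mmp9, the gelatinase of the last granules to form, measured 5.52 and 7.43 RPKM in the neck node tumors, 0.379 and 0.730 RPKM in the sufficient thymic and 0.577 and 1.54 RPKM in the deficient tumors. Both proteases thus had a value under 0.5 RPKM, the minimum used below for a test, in at least 1 thymic tumor. Retnlg, a secreted protein of the resistin family, measured 49.8 and 67.9 RPKM in the neck node tumors, 4.67 and 5.90 RPKM in the sufficient thymic and 2.04 and 6.77 RPKM in the deficient tumors. Cxcr2, the receptor that draws neutrophils along chemokine gradients, measured 2.69 and 2.59 RPKM in the neck node tumors, 0.279 and 0.251 RPKM in the sufficient thymic and 0.332 and 1.61 RPKM in the deficient tumors. Cxcr2 was the 1 gene of the 10 for which both deficient tumors lay above both sufficient thymic tumors. Over all genes tested, 42.6% had the 2 deficient tumors entirely above or entirely below the 2 sufficient thymic tumors.

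**Figure D1:**
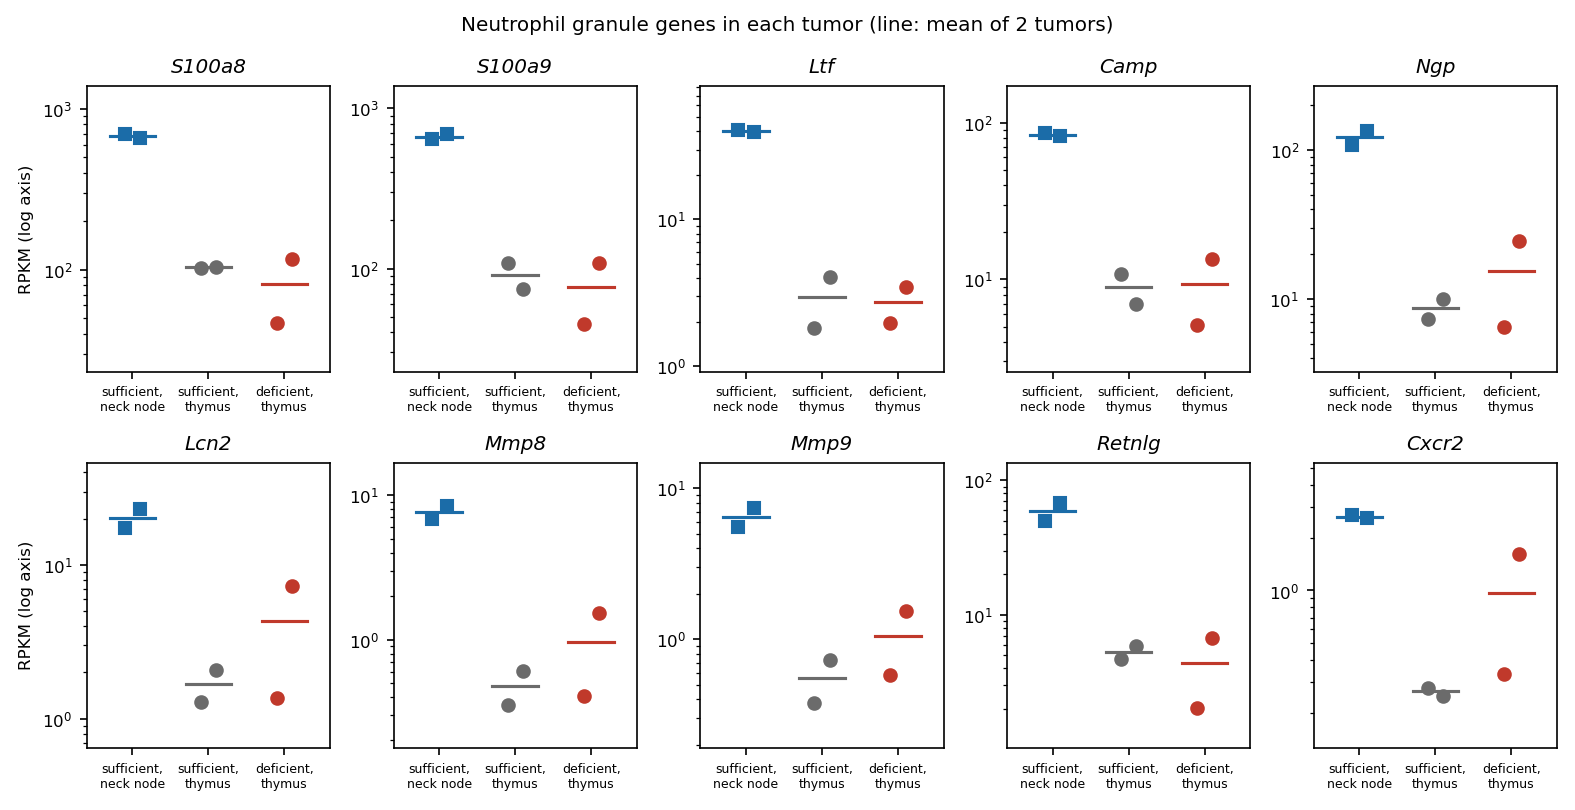
Expression of the 10 genes in each tumor, 1 panel per gene, in RPKM on a log axis, with 1 point per tumor (blue squares, sufficient neck node; grey circles, sufficient thymus; red circles, deficient thymus) and a line at the mean of the 2 tumors of each group. The 2 blue squares lie above all other points in all 10 panels, as for S100a8 at 693 and 656 RPKM against at most 117 RPKM elsewhere.

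Tumor site was compared within the 4 sufficient tumors, the only genotype with both sites. The neck node tumors were higher than the thymic tumors for all 10 genes, by 6.54-fold (S100a8) to 16.0-fold (Mmp8) in mean RPKM, with a median of 11.4-fold. Both neck node tumors were above both sufficient thymic tumors for 10 of the 10 genes, against 27.9% of all 12255 genes tested. They were above all 4 thymic tumors, the deficient ones included, for 10 of the 10 genes, against 5.69% of the 12751 genes tested over all tumors. For Cxcr2 the order among the sufficient tumors was fixed by the filter for testing, as only the neck node tumors there reached 0.5 RPKM. The lower neck node value was between 5.95 and 11.3 times the higher value of the sufficient thymic tumors. Within the neck node the 2 tumors differed by little, the ratio of replicate 2 to replicate 1 running from 0.947 to 1.36.

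By limma on log2(RPKM + 1), 8 of the 10 genes were higher in the neck node at an adjusted p under 0.05. Of all genes tested 0.139% were, 17 in number, made up of these 8 and 9 others. The 10 genes were chosen with earlier results of these data known. Counts of them between the sites, set against all genes, are thus a description only. Ngp measured 122 ± 18.6 RPKM in the neck node tumors and 8.70 ± 1.86 RPKM in the thymus (SD, n = 2 each here and below), a difference in log2 of 3.67 (SE 0.26, adjusted p = 0.0110 from limma). Ltf measured 40.0 ± 1.05 and 2.95 ± 1.59 RPKM, a difference of 3.44 (SE 0.33, adjusted p = 0.0302 from limma). Retnlg measured 58.8 ± 12.7 and 5.28 ± 0.866 RPKM, a difference of 3.24 (SE 0.27, adjusted p = 0.0197 from limma). The S100 genes had smaller differences in log2 at much higher levels. S100a8 measured 675 ± 25.9 and 103 ± 0.340 RPKM, a difference of 2.70 (SE 0.25, adjusted p = 0.0242 from limma). S100a9 measured 666 ± 33.5 and 91.2 ± 23.8 RPKM, a difference of 2.88 (SE 0.29, adjusted p = 0.0310 from limma). The 95% intervals of Ngp (3.04 to 4.30) and S100a8 (2.10 to 3.29) overlapped, and the difference between genes was not tested. Camp (3.13, adjusted p = 0.0219), Lcn2 (2.99, adjusted p = 0.0310) and Mmp8 (2.54, adjusted p = 0.0442) also passed by limma.

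Between the sites Mmp9 differed by 2.26 (SE 0.30, adjusted p = 0.0792 from limma) and Cxcr2 by 1.52 (SE 0.27, adjusted p = 0.201 from limma), and neither passed. Among the 4 sufficient tumors Cxcr2 reached 0.5 RPKM only in the neck node tumors. It was thus tested between the sites only through the group where it is high. Mmp8 and Mmp9 reached 0.5 RPKM in 3 of the 4 sufficient tumors, and the other 7 genes in all 4. With no adjustment, 10 of the 10 had a p under 0.05 from limma and were higher in the neck node, against 5.21% of the genes tested. The median difference of the 10 genes was 2.94, and that of all genes tested was 0.10. The exact two-sided permutation test gave p = 0.333 for each gene, the smallest value that 2 against 2 tumors allow. The calls depended on settings: without the filter on low values none of the 10 passed (adjusted p 0.481 to 0.684 from limma), and when the 2 deficient tumors shared in the estimate of the spread none passed (0.0630 to 0.455). In both of these fits all 10 genes kept an unadjusted p under 0.05 from limma, against 6.74% and 8.19% of all genes tested. They also depended on the thymic tumors, as 3 genes passed without sufficient replicate 3 and 2 without sufficient replicate 4. In each of these 4 fits all 10 genes stayed higher in the neck node.

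**Figure D2:**
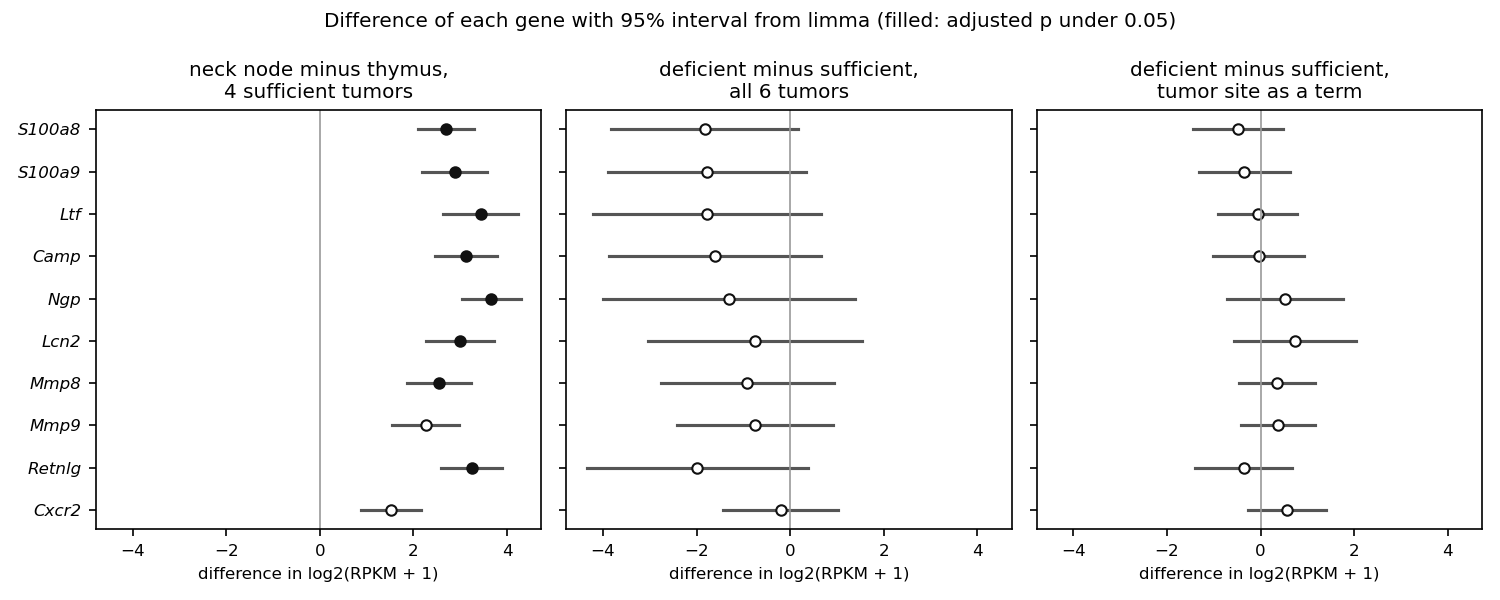
Difference in log2(RPKM + 1) of each gene with its 95% interval from limma, in 3 comparisons (neck node minus thymus in the 4 sufficient tumors; deficient minus sufficient in all 6 tumors; deficient minus sufficient with tumor site as a term). Filled points have an adjusted p under 0.05 and are found in the first panel only, for 8 genes, and the intervals of the other panels include 0 for all 10 genes.

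Genotype was compared first over all 6 tumors, as the study compared it. All 10 genes had lower means in the deficient tumors on the log2(RPKM + 1) scale, as had 32.4% of all genes tested. The differences of the 10 ran from -1.99 (Retnlg) to -0.20 (Cxcr2), with a median of -1.46 against 0.13 over all genes tested. S100a8 measured 81.4 ± 49.6 RPKM (SD, n = 2) in the deficient tumors and 389 ± 330 RPKM (SD, n = 4) in the sufficient tumors, a difference in log2 of -1.83 (SE 0.87, adjusted p = 0.893 from limma). Of the 10 genes 0 passed by limma (adjusted p 0.893 to 0.944), and 0 had an unadjusted p under 0.05. Over all genes 0.0627% passed and 0.737% were lower at an unadjusted p under 0.05. Both deficient tumors lay below all 4 sufficient tumors for 0 of the 10 genes, against 2.09% of all genes. The exact two-sided permutation test gave p from 0.400 to 0.800, where 15 splits of the tumors allow 0.133 at the least. The sufficient group holds tumors of both sites and the deficient group thymic tumors only, so genotype and site are separated in part only.

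With tumor site as a term, which sets the deficient tumors against the sufficient thymic tumors, the genes were divided in direction. Differences in log2 ran from -0.48 (S100a8) to 0.74 (Lcn2), 5 of the 10 were below 0 and 5 above, and the median was 0.16 against 0.19 over all genes. Of all genes 68.5% were above 0 in this fit, and 51.0% with median-ratio scaling, where the 10 genes were still divided 5 and 5. The difference of S100a8 had a 95% interval of -1.44 to 0.47, that of Lcn2 of -0.57 to 2.04 and that of Cxcr2 of -0.27 to 1.39, so the intervals were wide on both sides of 0. None of the 10 passed by limma (adjusted p 0.582 to 0.968) and 0 had an unadjusted p under 0.05, where 0.0235% of all genes passed and 8.97% had an unadjusted p under 0.05. The negative values were those of S100a8, S100a9, Retnlg, Ltf and Camp. The positive values were those of Ngp, Lcn2, Mmp8, Mmp9 and Cxcr2. In mean RPKM the deficient tumors were between 0.789 (S100a8) and 3.66 (Cxcr2) times the sufficient thymic tumors, and the high end rested on deficient replicate 2. Without that tumor 8 of the 10 genes had a difference below 0 (-1.14 to 0.07), as had 35.4% of all genes. Without deficient replicate 1 all 10 had a difference above 0 (0.17 to 1.64), as had 67.1% of all genes. Each of these fits holds 1 deficient tumor, so it has no measure of the spread between deficient tumors.

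The 2 deficient tumors differed from each other for every gene. Deficient replicate 2 was higher than deficient replicate 1 for 10 of the 10 genes, by 1.78-fold (Ltf) to 5.30-fold (Lcn2) with a median of 2.99-fold, so all 10 were at least 1.5 times higher, as were 23.4% of the 12668 genes tested that had a value above 0 in both deficient tumors. The ratio was 4.85 for Cxcr2, 3.78 for Ngp and 3.75 for Mmp8, and it was 2.51 for S100a8 and 2.38 for S100a9. Between the sufficient thymic tumors the direction was mixed, replicate 4 being higher than replicate 3 for 7 genes, with ratios from 0.637 (Camp) to 2.23 (Ltf). Deficient replicate 2 exceeded both sufficient thymic tumors for 9 genes, all but Ltf. Deficient replicate 1 lay below both for 5 genes (S100a8, S100a9, Camp, Ngp and Retnlg), and for these 5 it was the lowest of all 6 tumors. With 1 tumor on each side, this difference has no replicate check.

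**Figure D3:**
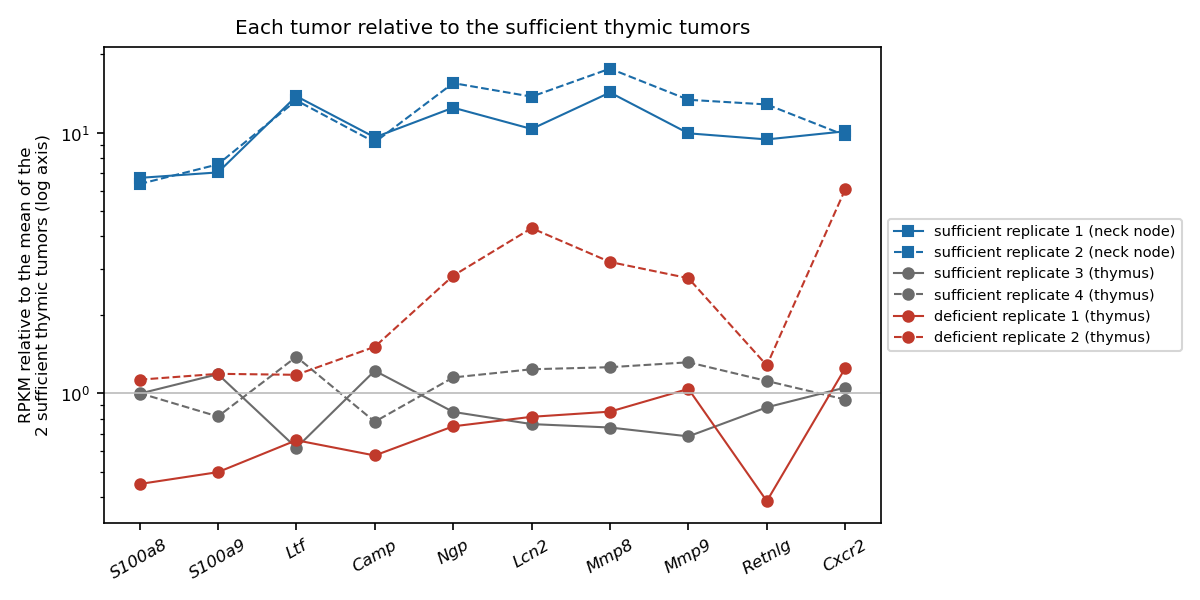
Each tumor's RPKM divided by the mean of the 2 sufficient thymic tumors, on a log axis, for the 10 genes. The neck node tumors (blue) lie above the other 4 tumors for each gene, deficient replicate 1 (solid red) lies between 0.386 and 1.25 times, and deficient replicate 2 (dashed red) lies between 1.13 and 6.07 times.

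Ratios between the genes were also compared over the tumors. The summed RPKM of the 10 genes was 1653 and 1712 in the neck node tumors, 238 and 208 in the sufficient thymic tumors, and 110 and 285 in the deficient tumors. S100a8 and S100a9 together made up 78.6% to 88.6% of it in every tumor. The ratio of S100a8 to S100a9 stayed near 1, from 0.952 to 1.39 over the 6 tumors. Ngp over S100a8 was 0.157 and 0.206 in the neck node, 0.0717 and 0.0968 in the sufficient thymic, and 0.140 and 0.211 in the deficient tumors, so the sufficient thymic tumors were lowest in this ratio. Lcn2 over Ltf was between 0.428 and 0.705 in 5 tumors and was 2.09 in deficient replicate 2. Cxcr2 over S100a8 was 0.00388 and 0.00395 in the neck node, 0.00271 and 0.00243 in the sufficient thymic, and 0.00716 and 0.0138 in the deficient tumors. The last ratio thus had both deficient tumors above all 4 sufficient tumors, with Cxcr2 itself under 0.5 RPKM in 3 of the 4 thymic tumors. The ratios were picked after their values were seen and are a description only.

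The other genes of neutrophils were in part also higher in the neck node tumors. The azurophil granule list (Mpo, Elane, Prtn3, Ctsg and Ms4a3) had a median site difference in log2 of 2.24, with 0 of 5 passing by limma and 5 of 5 higher at an unadjusted p under 0.05. Mpo and Ms4a3 were tested only through the neck node tumors, where they are high, so this count is not support for the difference. The same holds for 4 of the 14 genes of the next list (Fcnb, Olfm4, Itgb2l and Mmp25), for 2 of the 9 receptors (Trem1 and Clec4e) and for the regulator Cebpe. Elane, neutrophil elastase, measured 9.58 and 7.39 RPKM in the neck node tumors, 0.694 and 0.886 RPKM in the sufficient thymic and 0.342 and 1.47 RPKM in the deficient tumors (2.40, adjusted p = 0.0573 from limma). Of 14 other granule and secreted proteins, 1 passed, namely Cd177, a surface protein of neutrophils (2.66, adjusted p = 0.0343 from limma), and 9 were higher at an unadjusted p under 0.05. Cd177 measured 9.32 and 8.91 RPKM in the neck node tumors against 0.463 to 2.02 RPKM in the thymic tumors. The median of these 14 genes was 1.38. Not all of them were ordered by site. Chil3, a chitinase-like secreted protein and the most abundant of them, measured 28.7 and 33.0 RPKM in the neck node tumors, 5.13 and 24.2 RPKM in the sufficient thymic and 6.81 and 30.6 RPKM in the deficient tumors. Cybb, a subunit of the phagocyte oxidase, measured 6.70 and 4.91 RPKM in the neck node tumors and 2.37 and 12.7 RPKM in the sufficient thymic tumors. Padi4, an arginine deiminase, measured 3.63 and 16.6 against 3.47 and 22.8 RPKM.

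Among the receptors, 0 of 9 tested passed by limma and 5 were higher at an unadjusted p under 0.05, with a median of 0.64. Csf3r, the receptor of the growth factor G-CSF, measured 3.87 and 4.58 RPKM in the neck node tumors, 0.355 and 0.635 RPKM in the sufficient thymic and 0.894 and 2.29 RPKM in the deficient tumors (1.81, adjusted p = 0.150 from limma). Ly6g, the surface marker by which mouse neutrophils are usually sorted, measured 2.80 and 4.49 RPKM in the neck node tumors and 0.167 to 0.759 RPKM in the thymic tumors (1.67, adjusted p = 0.325 from limma). Unlike the 10 genes, Ly6g was lower in deficient replicate 2 (0.229 RPKM) than in deficient replicate 1 (0.448 RPKM). Among 4 regulators tested, 0 passed, 1 was higher at an unadjusted p under 0.05 and the median was 0.45. Cebpe, the C/EBP factor of specific granule genes, measured 1.73 and 1.77 RPKM in the neck node tumors, 0.265 and 0.195 RPKM in the sufficient thymic, and 0.0928 and 0.149 RPKM in the deficient tumors (1.16, adjusted p = 0.431 from limma). Spi1, which encodes PU.1 and is also expressed in B cells, ranged from 13.0 to 21.0 RPKM over the 6 tumors. In both comparisons of genotype, 0 genes of the 4 neutrophil lists passed by limma and 0 had an unadjusted p under 0.05. Their median differences in log2 over all 6 tumors were -0.87 (azurophil), -0.39 (other granule), -0.17 (receptors) and -0.04 (regulators). With tumor site as a term they were 0.16, 0.27, 0.25 and 0.18.

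The ligands and partners of the 10 genes did not, as a list, share the higher neck node values. Of 12 such genes 3 were tested between the sites, 0 passed, 0 had an unadjusted p under 0.05, and the median was 0.16. The Cxcr2 ligand Cxcl1 was listed at 0 and 0.0340 RPKM in the neck node tumors, at 0 and 0.307 RPKM in the sufficient thymic, whereas the deficient tumors held 0.200 and 1.81 RPKM. The metalloprotease inhibitor Timp1 measured 0.121 and 0.364 RPKM in the neck node tumors, 0.387 and 1.12 RPKM in the sufficient thymic, and 0.680 and 2.72 RPKM in the deficient tumors. Deficient replicate 2 held the highest value of both, and also of the inhibitor Timp2 (5.23 RPKM against 1.36 to 2.49 RPKM in the other 5 tumors).

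Markers of other cell types were read in the same tumors. Cd79b, a subunit of the B cell receptor complex, was high in all 6 (445 to 912 RPKM), and the 8 B cell markers had a median site difference of 0.06, with 0 passing and 0 at an unadjusted p under 0.05. The summed RPKM of the 8 T cell markers was 60.5 and 19.5 in the neck node, 41.2 and 21.7 in the sufficient thymic, and 13.1 and 17.0 in the deficient tumors, with 0 passing between sites and 0 at an unadjusted p under 0.05 (median 0.30). The macrophage and monocyte markers (12 genes, summed RPKM 369 and 199 in the neck node, 162 and 286 in the sufficient thymic, 294 and 387 in the deficient tumors) had a median site difference of -0.38, and 0 passed. At an unadjusted p under 0.05, 1 was higher and 2 were lower, where 639 and 325 of all 12255 genes tested were. Lyz2, lysozyme and the most abundant gene of these markers, measured 271 and 115 RPKM in the neck node tumors and 93.3 to 182 RPKM in the thymic tumors. The markers were mixed in direction. C1qa, a complement gene of tissue macrophages, measured 4.92 and 4.71 RPKM in the neck node tumors and 9.25 to 27.7 RPKM in the thymic tumors. The monocyte gene Ly6c2 measured 42.6 and 36.3 RPKM in the neck node tumors and 6.25 to 11.5 RPKM in the thymic tumors (1.99, adjusted p = 0.0904 from limma). In the comparison of genotype with site as a term, 11 of the 12 macrophage genes had a difference above 0, where 68.5% of all genes did, and the median was 0.60 against 0.19 over all genes. Of the 12 genes 0 passed by limma and 5 were higher at an unadjusted p under 0.05, against 6.78% of all genes.

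Of 8 markers of eosinophils, basophils and mast cells, only Prg2, the eosinophil major basic protein, was tested, at 4.22 and 3.08 RPKM in the neck node tumors and 0.363 to 1.03 RPKM in the thymic tumors (1.47, adjusted p = 0.407 from limma). The mast cell marker Ms4a2 was at most 0.121 RPKM in any tumor. Of the platelet markers 1 of 4 was tested, Pf4, at a difference of -1.31 (adjusted p = 0.678 from limma). Of 7 erythroid markers 4 were tested, with 0 passing and 0 at an unadjusted p under 0.05 (median -0.11).

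Salivary gland genes differed between the sites in the same direction as the 10 genes. Of the 15 salivary and epithelial markers 5 were tested and 3 passed by limma, all of the salivary gland. Among the sufficient tumors all 3, and Dcpp1, reached 0.5 RPKM only in the neck node tumors. These genes were thus tested between the sites only through the group where they are high. Bpifa2, the parotid secretory protein, measured 28.8 and 31.4 RPKM in the neck node tumors and 0.0159 to 0.131 RPKM in the thymic tumors (4.86, adjusted p = 0.00466 from limma). Smr3a, a submandibular gland gene, measured 27.3 and 22.0 RPKM against at most 0.175 RPKM (4.56, adjusted p = 0.00680 from limma), and Amy1, salivary amylase, passed at 3.19 (adjusted p = 0.0302 from limma). The summed RPKM of the 15 markers was 76.4 and 72.3 in the neck node, 5.68 and 4.83 in the sufficient thymic, and 3.06 and 13.4 in the deficient tumors. Of the epithelial keratins, Krt5 and Krt14 were listed at 0 in both neck node tumors, and Krt8 and Krt19 at 0.0525 RPKM or less. Krt18 measured 2.83 and 2.88 RPKM in the neck node tumors and 4.00 and 2.06 RPKM in the sufficient thymic tumors. The epithelial genes Epcam and Cdh1 were between 0.0574 and 0.250 RPKM in the neck node tumors. The salivary genes Aqp5, Muc19 and Prol1 were at 0.0373 RPKM or less there. The part of these transcripts in the site difference of the 10 genes was not tested.

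**Figure D4:**
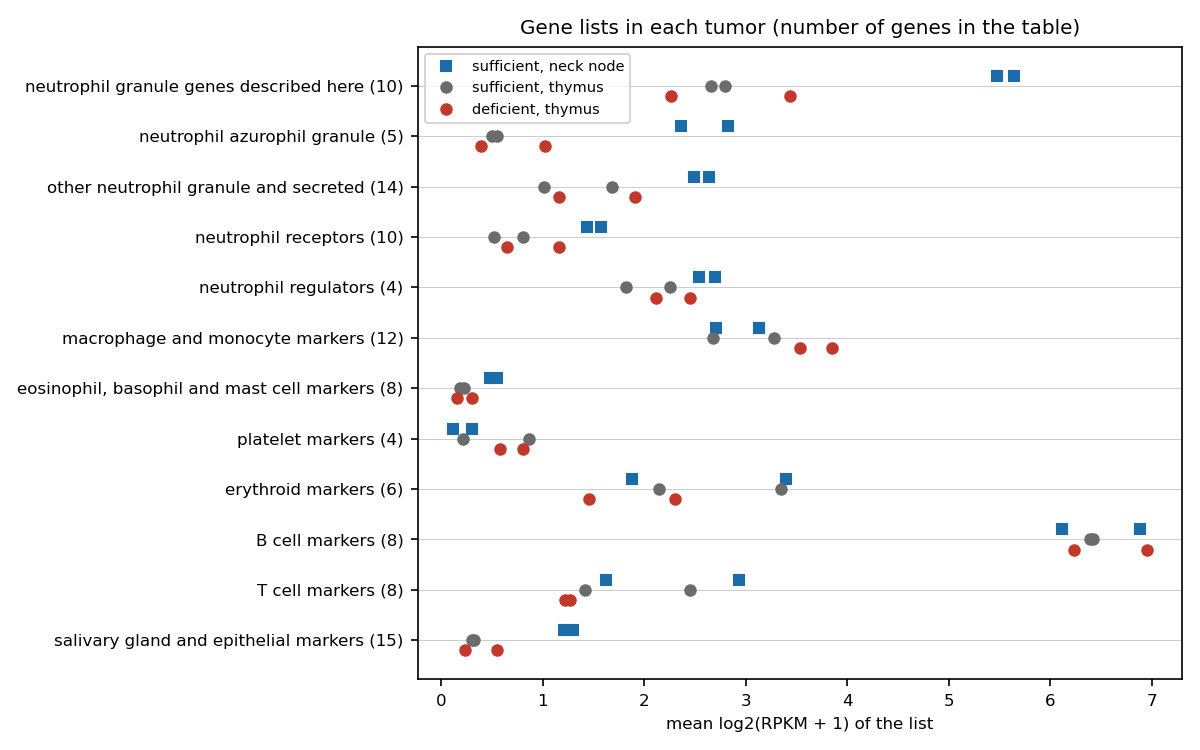
Mean log2(RPKM + 1) of the 10 genes and of 11 other gene lists in each tumor, with 1 point per tumor and the number of genes in brackets (blue squares, sufficient neck node; grey circles, sufficient thymus; red circles, deficient thymus). The neck node tumors stand above all thymic tumors for the 10 genes (5.48 and 5.64 against 2.26 to 3.44), the other neutrophil lists, the salivary list and the low eosinophil, basophil and mast cell list, and overlap with the thymic tumors for the macrophage, T cell and B cell lists.

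The genes nearest to the average pattern of the 10 genes over the 6 tumors were partly neutrophil and partly salivary. Likeness was measured as the root mean square distance, over the 6 tumors, between a gene's log2(RPKM + 1), centred on its mean, and the centred average of the 10 genes. A gene with the same level in every tumor would lie at 1.35, and the median of the other 12741 genes was 1.36. The 10 genes themselves lay at 0.240 (Mmp8) to 0.749 (Cxcr2), distances that are partly fixed because the average is their own. The nearest gene outside the set was Amy1 at 0.195, followed by Cd177 at 0.203, Elane at 0.253, Mpo (myeloperoxidase) at 0.339 and Pglyrp1, a peptidoglycan recognition protein of neutrophil granules, at 0.347. Next were Chia, a chitinase (0.433), Ifitm6, an interferon-inducible membrane protein (0.433), Pip, the prolactin-induced protein (0.448), and Ctsg, cathepsin G (0.462). AC160982.1, annotated as an immunoglobulin constant gene, was the tenth at 0.474. Amy1 measured 8.69 and 12.5 RPKM in the neck node tumors, 0.119 and 0.408 RPKM in the sufficient thymic, and 0.0883 and 1.06 RPKM in the deficient tumors, so it shared the higher value of deficient replicate 2 as well.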

How the data were processed

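Libraries were made from total RNA of 6 tumors with the TruSeq kit and sequenced as single-end reads. The authors aligned reads with STAR (version 2.3.0) to GRCm38 and counted them per Ensembl gene with HTSeq (version 0.5.4p3), and DESeq (version 1.12.1 in the submitters' processing notes) was their test. The deposited table gives 1 value per tumor for 38293 genes, normalized by the authors and read here as RPKM. Its header names no unit, and the gene lengths used and how the 2 technical replicates of each tumor were joined are not given in the sources used here. Depth is unknown because there are no counts, so intervals for counting error could not be had. Steps between low values did not give whole reads. Differences in log2(RPKM + 1) are smaller than true changes for low genes.

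A gene was tested where 2 or more of the tumors fitted reached 0.5 RPKM, with limma (version 3.58.1, R 4.3.3), using an intensity trend in the prior and adjusting over all genes tested by Benjamini-Hochberg. There were 3 fits: neck node against thymus in the 4 sufficient tumors (12255 genes), deficient against sufficient in all 6 tumors (12751 genes), and the same with tumor site as a term, as 3 groups with a shared spread. Single genes were compared by exact two-sided permutation tests (SciPy 1.17.1). The limma script was tested on simulated data. Alternatives changed the filter, the pseudocount, the scaling, the prior, the tumors fitted and the block of replicate numbers. The labels do not say whether tumors of a group came from related mice, and p-values measure only the spread between these tumors.

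The 10 genes, the other gene lists and the tests were chosen with earlier results of these data known. Genes of the lists were named where they had the largest or smallest difference or the highest level. Ly6g, Cybb, Cxcl1, Timp1, C1qa, Ms4a2, Krt5, Krt14, Aqp5, Muc19, Prol1 and Smr3a were named after their values were seen. So were Krt8, Krt18, Krt19, Epcam and Cdh1. Cebpd and Hbb-bs of the lists were not matched to the table. Sequences are from RefSeq (GRCm38.p6) and coordinates from GENCODE M21, on the assembly of the authors' alignment. The values of 1 marker gene of the lists are not reported here.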

Additional observations from a re-analysis of the deposited data

How the results depend on the processing

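The count of the 10 genes that passed between neck node and thymus, 8 as reported, was 0 without the filter on low values, 0 when 3 groups shared 1 spread, 4 with median-ratio scaling and 5 with quantile normalization. With 1 sufficient tumor left out, 1 site held a lone tumor, which is assumed to vary like the others. The differences were 2.45 to 3.82 without replicate 1 and 2.08 to 3.51 without replicate 2, with 9 genes tested in each. They were 1.54 to 3.47 without replicate 3 and 1.51 to 3.86 without replicate 4, with 10 tested in each. The count that passed was 7 with a pseudocount of 0.1, 7 with a pseudocount of 5 and 8 without trend. Direction was kept by all of the genes tested in each of these fits. The fit without the filter adjusted over more genes (20597) and also estimated the prior over them. The cause of the lost calls was not tested. In both comparisons of genotype 0 of the 10 genes passed under any alternative. Over all 6 tumors, leaving out 1 tumor at a time gave -0.69 to 0.28 for Cxcr2 (above 0 without sufficient replicate 1 or 2 or deficient replicate 1) and -1.66 to 0.14 for Lcn2 (above 0 without deficient replicate 1). With tumor site as a term, the ranges that crossed 0 were -1.14 to 0.17 for S100a8, -0.96 to 0.27 for S100a9, -0.48 to 0.36 for Ltf, -0.66 to 0.57 for Camp, -0.36 to 1.41 for Ngp, -0.16 to 1.64 for Lcn2, -0.066 to 0.78 for Mmp8 and -1.04 to 0.31 for Retnlg, and the deficient tumor left out set the sign for all but Ltf and Camp, which also turned without a sufficient thymic tumor. Median-ratio scaling moved the median difference of all genes from 0.13 to 0.00 over all tumors, from 0.19 to 0.01 with site as a term and from 0.10 to -0.01 between sites.

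The labels number the tumors in both genotypes, and a replicate block leaves only the neck node tumors, of the same numbers, to set against the deficient ones. With that block 0 of the 10 genes passed by limma (adjusted p 0.154 to 0.847), where 1 of all 12751 genes did. The differences of the 10 genes were -3.61 to -0.97. All 10 had an unadjusted p under 0.05 from limma, against 5.50% of all genes tested. Deviations of same-numbered tumors correlated at 0.149 over 12751 genes, with 2 numbers only, so the numbers were not taken to pair the tumors. Depth was not known, so low values such as those of Cxcr2 carry an unknown counting error.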
